A study of Mus musculus with 24 samples.

Results

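The 9 genes Pitx1, Tbx4, Tbx2, Tbx3, Tbx15, Meis1, Meis2, Shox2 and Msx1, transcription factors that assign limb identity or position along the limb and are not Hox genes, were taken by gene symbol from a table of 52178 genes, and all 9 were found there once each. The table held RNA sequencing counts of 24 mouse cartilage explant samples of 2 tissues. Hip caps were the cartilage caps of the femoral heads of 4-week-old male C57/BL6 mice, with the 2 caps of 1 mouse pooled in each sample. Metatarsals were rudiments from C57/BL6 embryos at embryonic day 15 (E15), with 6 pooled in each sample and sex not determined. The labels name no transgene, deletion or drug for any group. Each tissue was cultured for 24 h, held for 1 h in a syringe inside a water-filled vessel at 0 MPa (control), 5 MPa or 50 MPa of hydrostatic pressure, and cultured for a further 24 h, with 4 samples in each of the 6 groups. The study took 5 MPa as a physiological and 50 MPa as an injurious load. Hip cap control replicate 4 and hip cap 50 MPa replicate 2, which the study left out of its own comparisons, entered no group value here except the ranges of total counts, so that 22 libraries remained.

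The limb bud is patterned along the axis from body to digits. Meis1 and Meis2 mark its proximal part, the future upper leg, and Shox2 is needed for growth of the upper bones. Pitx1 and Tbx4 mark the hindlimb rather than the forelimb, Tbx2 and Tbx3 are repressors at the limb margins with roles in digit identity, Tbx15 acts in skeletal growth, and Msx1 is a homeobox repressor of the distal mesenchyme downstream of BMP signals. The femoral head lies at the proximal end of the hindlimb skeleton and the metatarsals lie in the foot, so both tissues come from 1 limb at different levels. The 2 tissues also differed in age (4 weeks against E15), culture medium and the number of pieces pooled. Hip caps came from males, and the sex of the metatarsals was not determined. Position, age, sex and culture cannot be told apart in any comparison between the tissues. In these bulk samples fewer cells of a type and less RNA per cell cannot be told apart either. Sequencing run and library type were also uneven between the tissues. Run 1 held 2 stranded and 4 unstranded hip cap libraries, all controls used among them, but only 1 stranded and 1 unstranded metatarsal library. Run 2 held 4 hip cap and 10 metatarsal libraries, all stranded. Except where all libraries of a pressure shared a run, tissue comparisons rest on a run effect estimated with those few metatarsals.

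Total counts, over all 24 libraries, were 4185241 to 17320753 in the metatarsal controls, 6731279 to 21130510 in the hip cap controls and 7565163 to 25104240 in the other groups. All 10 cartilage markers were higher in the hip cap controls, with a summed level of 44289 to 72455 CPM against 1673 to 4366 CPM in the metatarsal controls, where each was still counted in every library. All 10 skeletal muscle markers were lower in the hip caps (8.70 to 13.0 CPM against 1029 to 2552 CPM), with Myog, a myogenic regulator, at 0 counts in all 3 hip cap controls. Of 10 perichondrium and connective tissue markers 1 was higher and 7 were lower in the hip caps (2845 to 4224 CPM against 6274 to 9216 CPM). Metatarsal control replicate 2 stood apart with 362.6 CPM of 6 epidermis markers, against at most 6.25 CPM in any other library used. Hip cap 5 MPa replicate 3 had the most endothelium (274 CPM, next highest library 139), haematopoietic (160 CPM, next 63.9) and perichondrium markers (12404 CPM, next 9855). Of the other lists, 1 of 5 tendon markers was higher and 3 were lower in hip cap controls, 1 of 4 epidermis and 1 of 6 endothelium markers were lower, and none of 5 tested haematopoietic markers passed by edgeR (none at an unadjusted p under 0.05). The cartilage, skeletal muscle, perichondrium and tendon lists moved between the tissues at all 3 pressures, and their part in the differences below was not tested.

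Promoter sequence from RefSeq (build GRCm38.p6, 250 bases before to 50 bases after the start) was found for 5 of the 9 genes, namely Meis1, Meis2, Shox2, Tbx4 and Msx1. The window of Tbx4, the hindlimb factor with the widest metatarsal excess, is shown beside those of the 3 genes that were higher in hip caps, so that the regions in front of oppositely distributed genes can be read together. Capitals mark matches on either strand to TGACAG, the MEIS core, to TGATTG, which holds a PBX half-site, to TAATCC, the core read by bicoid-type factors such as Pitx1, to GGTGTG, a T-box core, or to TATAAA, the TATA box, and no 2 matches overlapped. Each sequence reads 5′ to 3′ on the gene's own strand, at chr11:19018920-19019219 (minus strand) for Meis1, chr2:116064570-116064869 (minus strand) for Meis2, chr3:66981722-66982021 (minus strand) for Shox2 and chr11:85896515-85896814 (plus strand) for Tbx4.
Meis1: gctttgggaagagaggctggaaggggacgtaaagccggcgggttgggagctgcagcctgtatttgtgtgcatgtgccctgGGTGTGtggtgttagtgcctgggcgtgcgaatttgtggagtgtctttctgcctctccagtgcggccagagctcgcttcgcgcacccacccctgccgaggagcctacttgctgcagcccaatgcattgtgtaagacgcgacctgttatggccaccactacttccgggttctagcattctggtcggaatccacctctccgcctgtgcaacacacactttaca
Meis2: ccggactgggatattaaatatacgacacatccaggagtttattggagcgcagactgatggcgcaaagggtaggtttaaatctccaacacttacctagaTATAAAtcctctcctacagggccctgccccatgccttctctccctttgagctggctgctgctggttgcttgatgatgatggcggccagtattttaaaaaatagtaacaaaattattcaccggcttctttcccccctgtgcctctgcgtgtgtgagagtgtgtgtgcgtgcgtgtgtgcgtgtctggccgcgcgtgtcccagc
Shox2: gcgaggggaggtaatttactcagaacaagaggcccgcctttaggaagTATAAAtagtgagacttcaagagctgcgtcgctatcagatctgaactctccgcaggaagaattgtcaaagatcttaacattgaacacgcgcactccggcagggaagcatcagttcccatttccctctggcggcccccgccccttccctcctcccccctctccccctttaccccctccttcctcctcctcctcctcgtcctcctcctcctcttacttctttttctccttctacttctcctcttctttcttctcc
Tbx4: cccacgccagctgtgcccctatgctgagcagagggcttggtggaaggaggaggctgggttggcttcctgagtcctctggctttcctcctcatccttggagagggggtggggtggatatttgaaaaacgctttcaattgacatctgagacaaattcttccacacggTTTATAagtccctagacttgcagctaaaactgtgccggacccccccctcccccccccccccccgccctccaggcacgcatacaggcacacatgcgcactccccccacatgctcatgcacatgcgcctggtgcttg

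GGTGTG was found 170 bases upstream of the start of Meis1, and TATAAA was found 152 bases upstream of Meis2, 203 bases upstream of Shox2 and, on the opposite strand, 85 bases upstream of Tbx4. The window of Msx1 held TGATTG 56 bases upstream. TGACAG and TAATCC were in none of the 5 windows. Of all 32851 mouse promoter windows of 300 bases in the same table, 19.2% held TGACAG, 14.0% TGATTG, 7.06% TAATCC, 19.0% GGTGTG and 13.6% TATAAA. A match describes letters in these windows and not a bound site.

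Levels are given as CPM, counts scaled to library size with TMM factors, and the genes are compared with each other only after division by exon length, as CPM per kb. In the hip cap controls Shox2 (10.9 ± 4.38 CPM per kb, SD, n = 3) and Tbx15 (10.6 ± 1.53) stood above the other 7 genes, and their ranges overlapped. Pitx1, Meis2, Tbx4, Meis1 and Msx1 followed in that order from 2.97 ± 1.35 down to 1.12 ± 0.394 CPM per kb, with each overlapping the next. Tbx2 (0.604 ± 0.248) overlapped Msx1 above it, and Tbx3 (0.164 ± 0.0747) was lowest without overlap.

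In the metatarsal controls the order was different. Tbx15 was highest at 23.5 ± 2.28 CPM per kb (SD, n = 4), followed without overlap by Tbx4 (16.2 ± 2.65), Pitx1 (8.49 ± 1.77), Tbx2 (3.86 ± 1.41) and Msx1 (2.02 ± 0.568). Shox2, Tbx3, Meis2 and Meis1 were lowest, from 0.897 ± 0.328 down to 0.495 ± 0.0733 CPM per kb, and each of these overlapped the next. Shox2 was thus first of 9 in the hip cap controls, overlapping Tbx15, and sixth of 9 in the metatarsal controls. Tbx4 was the fifth in the hip cap controls and the second in the metatarsal controls. Pressured hip caps had Tbx15 above Shox2 without overlap. The means were 12.6 against 9.36 CPM per kb under the lower pressure and 11.3 against 8.29 under the higher. Tbx4 had rank 6 under both.

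**Figure D1:**
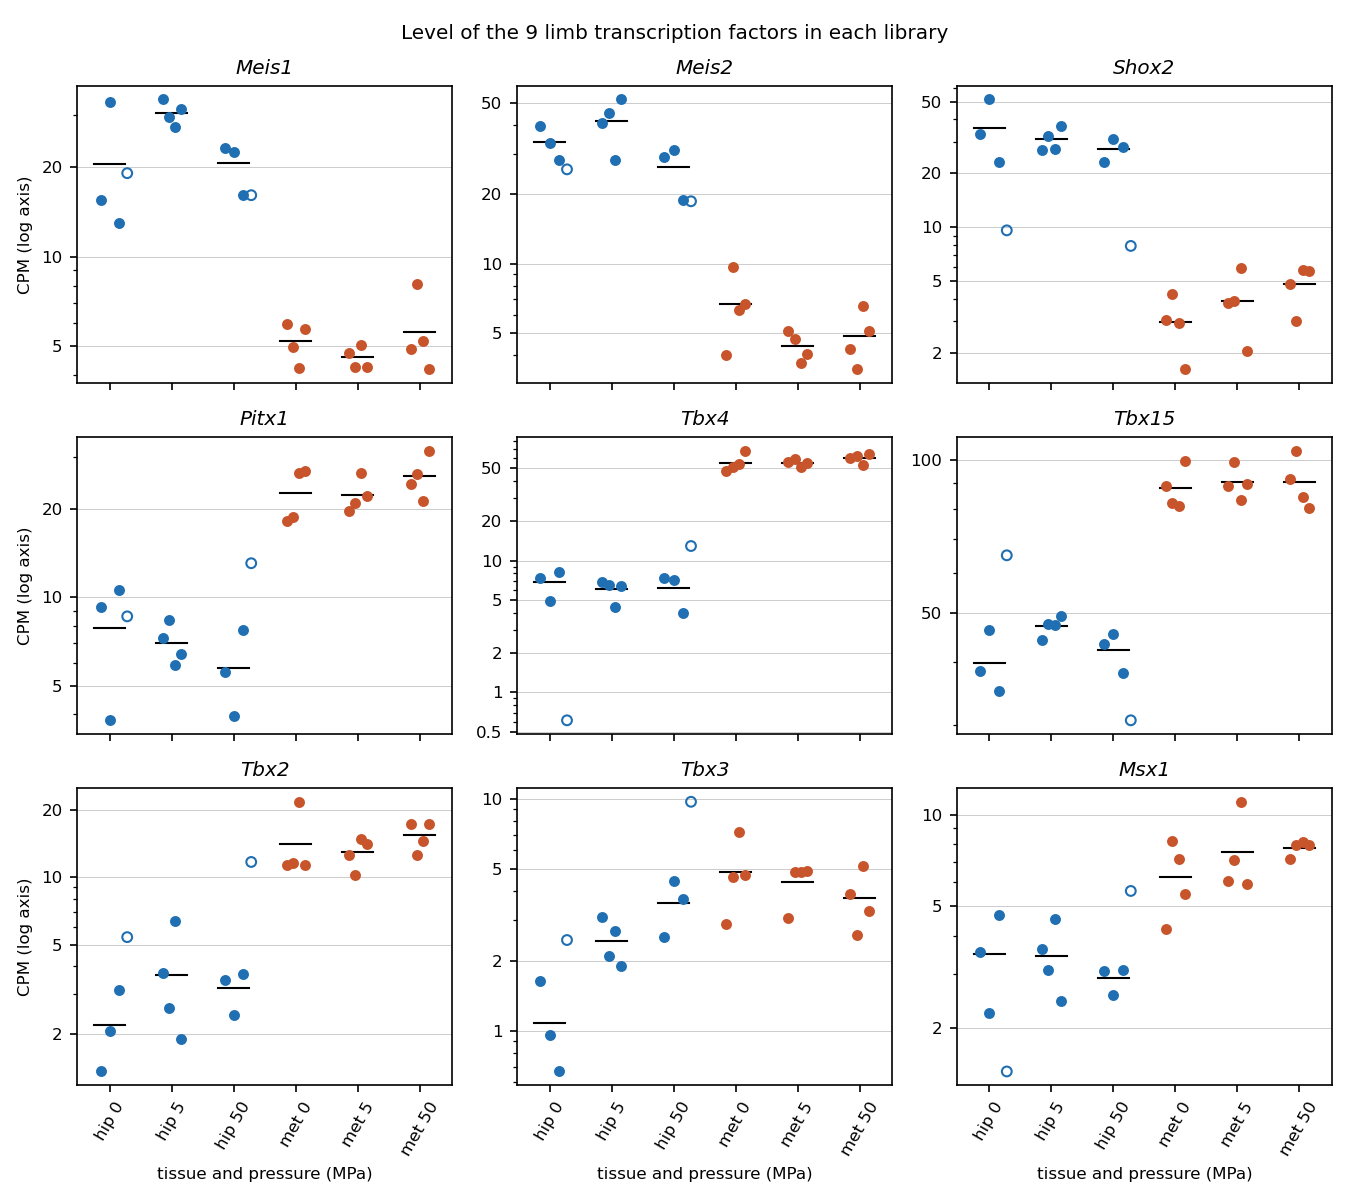
CPM of each of the 9 genes (1 panel each, log axis) in every library, by tissue (hip, hip cap in blue; met, metatarsal in orange) and pressure in MPa. Points are libraries, horizontal lines are group means over the libraries used, and open circles are the 2 libraries left out. Meis1, Meis2 and Shox2 were higher in all 10 hip cap libraries used than in all 12 metatarsal libraries, and Pitx1, Tbx4, Tbx15 and Tbx2 were lower in all 10.

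The first question was how the 9 genes differed between the tissues without pressure. Meis1, Meis2 and Shox2 were higher in hip cap controls by 4.01-fold to 9.44-fold, Tbx4, Tbx2, Tbx3, Pitx1 and Tbx15 were lower, and Msx1 did not pass the test. Thus 3 genes were higher and 5 were lower by the quasi-likelihood test of edgeR at an adjusted p of at most 0.05, where 14.1% of all 21283 genes tested were higher and 15.9% were lower. The median log2 fold change of the 9 was -1.09, against -0.08 for all genes. The CPM ranges of the tissues did not overlap for 8 of the 9 genes, against 42.4% of all genes. Of all calls 47.0% were higher in hip caps, and with library sizes in place of TMM factors 7.97% were, as the median of all genes moved to -0.97. Under that scaling Meis1 (1.10), Meis2 (1.73) and Shox2 (2.43) still passed as higher and the other 6 genes, Msx1 included, as lower, on the log2 scale.

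Among the proximal factors, Meis1, a TALE-class homeodomain protein and partner of Pbx and Hox proteins, measured 15.5, 33.1 and 13.0 CPM in hip cap control replicates 1, 2 and 3 and 5.93, 4.97, 4.23 and 5.71 CPM in metatarsal control replicates 1 to 4. All hip caps were above all metatarsals, with hip cap control replicate 2 far above the other two. The log2 fold change, hip cap minus metatarsal, was 2.00 ± 0.30 (SE; adjusted p = 4.73e-05). Its relative Meis2 measured 39.7, 33.4 and 28.1 CPM in hip caps and 4.02, 9.68, 6.29 and 6.64 CPM in metatarsals. The lowest hip cap again exceeded the highest metatarsal, which was replicate 2, the library with epidermis markers. The log2 fold change of Meis2 was 2.54 ± 0.36 (SE; adjusted p = 3.93e-05), and it was 2.67 (adjusted p = 1.5e-05) without that library. It moved to 1.79 (adjusted p = 0.0320) without metatarsal control replicate 1, to 3.17 (adjusted p = 0.000111) without hip cap control replicate 3 and to 3.16 (adjusted p = 0.000148) without metatarsal 50 MPa replicate 4.

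Shox2, the homeodomain factor of proximal bone growth, measured 33.2, 51.7 and 23.1 CPM in the hip caps and 3.06, 4.28, 2.92 and 1.62 CPM in the metatarsals. The lowest hip cap lay over 5 times above the highest metatarsal. This gave the largest positive log2 fold change of the 9 genes, 3.24 ± 0.46 (SE; adjusted p = 4.4e-05), which was 2.62 (adjusted p = 0.0176) without metatarsal control replicate 1. The 2 libraries left out went against the others of their tissue for this gene, with 9.63 CPM in hip cap control replicate 4 and 7.89 CPM in hip cap 50 MPa replicate 2, between the metatarsals and the other hip caps.

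Among the hindlimb factors, Pitx1, a homeodomain protein that acts upstream of Tbx4, measured 9.24, 3.82 and 10.6 CPM in the hip cap controls and 18.2, 18.8, 26.5 and 26.8 CPM in the metatarsal controls. All metatarsals were above all hip caps, and hip cap replicate 2 was lowest. The log2 fold change was -1.56 ± 0.30 (SE; adjusted p = 0.000391). Tbx4, the T-box factor of hindlimb outgrowth, measured 7.34, 4.93 and 8.19 CPM in hip caps and 47.7, 51.1, 53.6 and 68.2 CPM in metatarsals. The groups were widely apart, at 6.82 ± 1.69 CPM (SD, n = 3) against 55.1 ± 9.03 CPM (SD, n = 4), and the log2 fold change of -2.97 ± 0.23 (SE; adjusted p = 5.28e-09) was the largest negative one, with hip caps 7.86-fold lower. Tbx5, the forelimb counterpart of Tbx4, was also measured, at 1.09, 0.955 and 0.857 CPM in hip caps and 1.91, 5.03, 4.40 and 2.86 CPM in metatarsals. It was lower in hip caps without overlap (log2 fold change -1.59 ± 0.45, adjusted p = 0.0117), and in each tissue its mean level was under that of Tbx4, also per kb of exon (0.759 CPM per kb against 16.2 in metatarsal controls).

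Of the other T-box genes, Tbx15, which acts in the growth of limb bones, measured 38.3, 46.1 and 35.0 CPM in hip caps and 89.0, 82.4, 81.3 and 99.9 CPM in metatarsals. It was abundant in both tissues and about 2.12-fold lower in hip caps, with a log2 fold change of -1.09 ± 0.15 (SE; adjusted p = 9.98e-06) and no overlap. Tbx2, a repressor that neighbours Tbx4 on chromosome 11, measured 1.36, 2.07 and 3.14 CPM in hip caps and 11.3, 11.6, 21.7 and 11.3 CPM in metatarsals. These hip caps held 5, 13 and 33 counts of Tbx2. The high metatarsal was replicate 3, the groups did not overlap, and the log2 fold change was -2.57 ± 0.46 (SE; adjusted p = 0.000176).

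Tbx3, the close relative of Tbx2, had the fewest counts of the 9 genes over the hip cap controls. They held 6, 6 and 7 counts, or 1.63, 0.955 and 0.667 CPM, and the metatarsals measured 2.87, 4.60, 7.20 and 4.71 CPM. The groups did not overlap, and the log2 fold change was -1.88 ± 0.49 (SE; adjusted p = 0.00669). The value was -2.79 (adjusted p = 0.0169) without metatarsal control replicate 1. The call was lost without hip cap control replicate 3, at -1.21 (adjusted p = 0.175), and without metatarsal 50 MPa replicate 4, at -1.22 (adjusted p = 0.167). Msx1 measured 3.53, 2.23 and 4.67 CPM in hip caps and 4.21, 8.18, 7.15 and 5.48 CPM in metatarsals. Here the groups overlapped and the log2 fold change of -0.60 ± 0.36 (SE; adjusted p = 0.220) did not pass the test, though it passed at -0.85 (adjusted p = 0.0247) with no terms for sequencing run and library type, at -0.999 (adjusted p = 0.0195) with library type alone and at -1.21 (adjusted p = 0.0381) over all 24 libraries.

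The same question was asked at 5 MPa and 50 MPa. At 5 MPa all 9 genes passed, 3 higher and 6 lower in hip caps (18.8% and 19.1% of all genes), and at 50 MPa 3 were higher and 5 lower (10.1% and 9.58%). The CPM ranges did not overlap for 8 genes at 5 MPa (40.8% of all genes) and 8 at 50 MPa (39.9%), and for 7 genes over all 10 hip cap and 12 metatarsal libraries (16.1%). Those 7 were Meis1, Meis2, Shox2, Pitx1, Tbx4, Tbx15 and Tbx2. With library sizes alone the share of all calls that were higher in hip caps moved from 49.7% to 12.4% at 5 MPa and from 51.5% to 7.55% at 50 MPa (medians of all genes -0.70 and -0.90), and the directions of the called members were unchanged. All 8 libraries at 5 MPa were stranded and, by the runs as read, which are uncertain, came from 1 sequencing run. Within those libraries the 9 calls and their directions were kept.

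At 5 MPa Meis1 measured 33.7, 29.3, 27.3 and 31.2 CPM in hip caps and 4.76, 4.27, 5.06 and 4.25 CPM in metatarsals, and Meis2 measured 41.0, 45.2, 28.1 and 51.7 CPM and 5.07, 4.70, 3.71 and 4.04 CPM. Both were over 5 times higher in the lowest hip cap than in the highest metatarsal, with log2 fold changes of 2.73 ± 0.20 (SE; adjusted p = 1.07e-09) and 3.24 ± 0.23 (SE; adjusted p = 1.86e-09). Shox2 measured 26.9, 32.6, 27.5 and 37.0 CPM in hip caps and 3.77, 3.89, 5.95 and 2.04 CPM in metatarsals, a log2 fold change of 3.00 ± 0.29 (SE; adjusted p = 1.74e-07). Tbx4 measured 6.85, 6.54, 4.48 and 6.40 CPM in hip caps against 56.1, 58.8, 51.05 and 54.9 CPM in metatarsals, and its log2 fold change of -3.19 ± 0.15 (SE; adjusted p = 6.66e-12) was close to that in the controls. Pitx1 (-1.68 ± 0.20, adjusted p = 1.01e-06), Tbx2 (-1.81 ± 0.28, adjusted p = 3.51e-05) and Tbx15 (-0.94 ± 0.11, adjusted p = 4.19e-07) were also lower in hip caps, with ± as SE. Hip cap replicate 3, the library with the most endothelium, haematopoietic and perichondrium markers, was lowest of the 4 hip caps for Meis2 and Tbx4 and highest for Tbx2, at 6.39 CPM. Without it the log2 fold changes were 3.46 for Meis2, -2.99 for Tbx4 and -2.16 for Tbx2, and all 3 still passed.

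Msx1 passed at 5 MPa. Hip caps measured 3.63, 3.09, 4.54 and 2.44 CPM and metatarsals 6.06, 7.08, 11.01 and 5.91 CPM, which did not overlap, and the log2 fold change was -1.13 ± 0.23 (SE; adjusted p = 0.000483). Tbx3 measured 3.10, 2.11, 2.68 and 1.90 CPM in hip caps and 3.05, 4.81, 4.83 and 4.89 CPM in metatarsals at 5 MPa. The highest hip cap, replicate 1, exceeded the lowest metatarsal, replicate 1, and the log2 fold change was -0.84 ± 0.29 (SE; adjusted p = 0.0247). That call was lost without hip cap 5 MPa replicate 2 or 4 or without metatarsal 5 MPa replicate 2, 3 or 4, at adjusted p values of 0.0554 to 0.105 by edgeR. It was also lost for Tbx3 with no filter on counts (adjusted p = 0.0554 by edgeR) and over all 24 libraries (adjusted p = 0.146).

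At 50 MPa Meis1 measured 23.1, 22.5 and 16.1 CPM in hip cap replicates 1, 3 and 4 and 4.89, 8.10, 5.23 and 4.19 CPM in the metatarsals, Meis2 29.1, 31.2 and 18.9 CPM and 4.23, 3.47, 6.55 and 5.10 CPM, and Shox2 23.2, 31.0 and 28.2 CPM and 4.83, 3.03, 5.83 and 5.71 CPM. The proximal factors thus kept their excess in hip caps, with no overlap and log2 fold changes of 2.34 ± 0.31 (SE; adjusted p = 2.01e-05) for Meis1, 2.70 ± 0.37 (SE; adjusted p = 2.65e-05) for Meis2 and 2.50 ± 0.45 (SE; adjusted p = 0.000611) for Shox2. Tbx4 measured 7.38, 7.07 and 4.02 CPM in hip caps and 59.4, 62.2, 52.9 and 64.0 CPM in metatarsals, and Pitx1 measured 5.59, 3.95 and 7.74 CPM and 24.3, 26.2, 21.2 and 31.5 CPM. Tbx4 (-3.31 ± 0.24, adjusted p = 2.3e-09), Pitx1 (-2.54 ± 0.31, adjusted p = 2.75e-06), Tbx2 (-2.51 ± 0.45, adjusted p = 0.000220), Msx1 (-1.46 ± 0.36, adjusted p = 0.00454) and Tbx15 (-0.92 ± 0.16, adjusted p = 0.000165) were lower. Tbx3 overlapped between the tissues, with 2.53, 4.44 and 3.71 CPM in hip caps and 3.90, 2.58, 5.11 and 3.28 CPM in metatarsals. It did not pass, at 0.37 ± 0.46 (SE; adjusted p = 0.634), and its sign turned without batch terms (-0.06) and with library sizes alone (-0.40). With the 2 left-out libraries added, Tbx2 (-1.48, adjusted p = 0.0928) and Msx1 (-1.46, adjusted p = 0.0521) no longer passed. Without metatarsal 50 MPa replicate 4, the 1 metatarsal library of that group that shared the run and library type of the hip caps, 5 of the 9 passed, and Tbx2, Tbx15 and Msx1 had adjusted p values of 0.0879, 0.0738 and 0.235 by edgeR. Without that library Meis2 was 3.74 (adjusted p = 0.00247) and Shox2 3.40 (adjusted p = 0.0298) on the log2 scale.

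**Figure D2:**
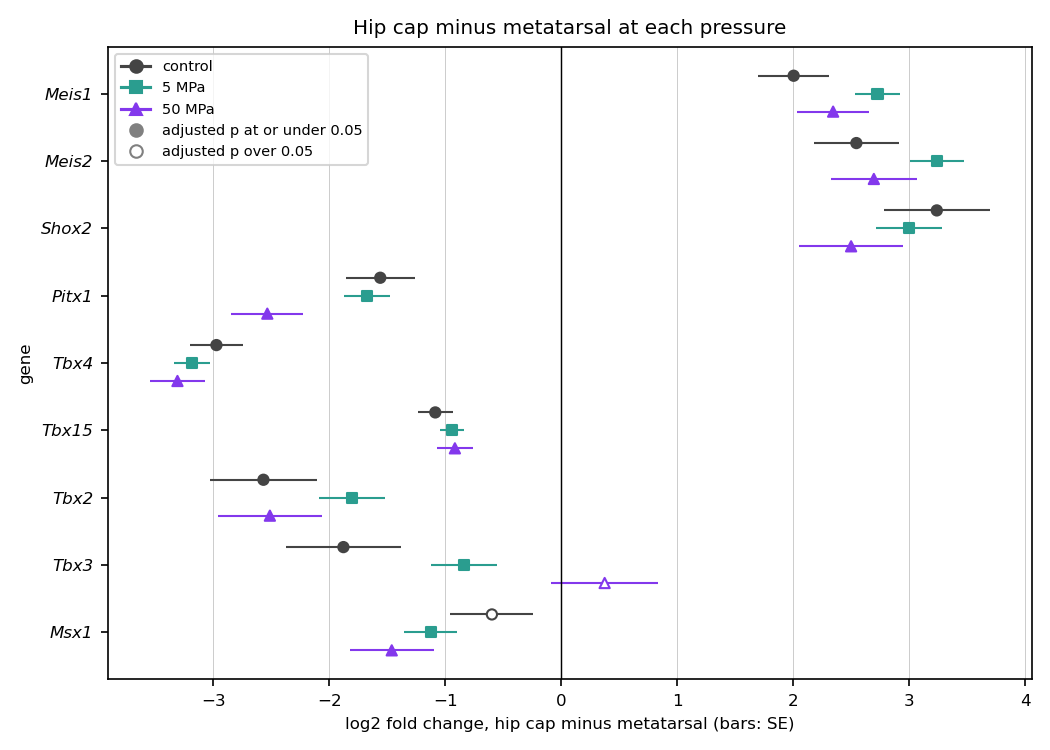
Log2 fold change of each gene, hip cap minus metatarsal, at 0, 5 and 50 MPa, with the standard error of the edgeR fit as bars and filled symbols where the adjusted p was at most 0.05. Meis1, Meis2 and Shox2 lie between 2.00 and 3.24 at all 3 pressures, and Tbx4 lies between -3.31 and -2.97. Tbx3 at 50 MPa and Msx1 in the controls are the open symbols.

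The second question was whether pressure changed the 9 genes within a tissue. In hip caps at 5 MPa edgeR called none of the 9 (0.0188% of all genes), none had an unadjusted p under 0.05, and DESeq2 called none. The log2 fold changes, 5 MPa minus control, ran from -0.42 for Msx1 to 0.79 for Tbx3. By the runs as read, all hip caps at 5 MPa were in another sequencing run than the hip cap controls used. This comparison thus rests on the run effect estimated in the metatarsals. Tbx3 was the 1 gene whose CPM ranges did not overlap there (16.2% of all genes), and it passed only where no batch terms were fitted, at 1.30 (adjusted p = 0.0450).

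In hip caps at 50 MPa Tbx3 rose and no other gene passed, 1 of 9 against 5.18% of all genes called in either direction. The controls measured 1.63, 0.955 and 0.667 CPM (6, 6 and 7 counts in replicates 1, 2 and 3) and the 50 MPa libraries 2.53, 4.44 and 3.71 CPM (24, 64 and 12 counts in replicates 1, 3 and 4). All 3 pressured libraries were above all 3 controls, which was so for 15.8% of all genes in either direction, and the hip caps at 5 MPa, at 3.10, 2.11, 2.68 and 1.90 CPM, were above the controls and overlapped the 50 MPa range. The log2 fold change was 1.90 ± 0.52 (SE; adjusted p = 0.0454). An exact two-sided permutation test of mean log2 CPM gave p = 0.100, the smallest that 3 against 3 allows (0.367 after Benjamini-Hochberg adjustment over 45 such tests). Of all calls 64.1% were higher at 50 MPa, and 84.1% with library sizes alone (median of all genes 0.25), where Tbx3 was at 2.26, adjusted p = 0.100. Beside this, the summed cartilage markers were 29710 to 34257 CPM at 50 MPa against 44289 to 72455 CPM in the controls, without overlap. By edgeR 1 of these 10 markers was lower, 7 had an unadjusted p under 0.05, and the median log2 fold change was -1.21. The skeletal muscle markers summed to 26.8 to 42.7 CPM against 8.70 to 13.0 CPM, also without overlap (1 of 10 higher, 1 at an unadjusted p under 0.05 by edgeR). Likewise without overlap, the haematopoietic markers summed to 40.5 to 57.3 CPM at 50 MPa against 19.6 to 33.8 CPM (none of 5 tested passed by edgeR, 2 at an unadjusted p under 0.05). The tendon markers summed to 214 to 335 CPM against 395 to 465 CPM, with no overlap (none of 5 passed, none at an unadjusted p under 0.05). Of 10 perichondrium markers 1 was lower. These lists moved beside Tbx3, and their part in the Tbx3 difference was not tested.

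The Tbx3 call was not stable. It was lost without hip cap control replicate 3, the 1 control that was unstranded like all 3 libraries at 50 MPa (0.82, adjusted p = 0.718), and without hip cap 50 MPa replicate 3, the library with the highest level (1.59, adjusted p = 0.138). It was also lost without any 1 of 11 other libraries, namely hip cap 5 MPa replicates 1, 2 and 4, metatarsal control replicates 2 and 4, metatarsal 5 MPa replicates 1 to 4 and metatarsal 50 MPa replicates 1 and 3, at log2 fold changes of 1.80 to 1.90 and adjusted p values of 0.0505 to 0.0680 by edgeR. The left-out hip cap control replicate 4 held 36 counts of Tbx3, or 2.46 CPM, above the 3 other controls. Over all 24 libraries the value was 2.19 (adjusted p = 0.177), and within the run that held the hip cap controls and 50 MPa libraries it was 1.78 (adjusted p = 0.387).

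Pitx1 came nearest to the threshold in the other direction. Its hip cap levels were 9.24, 3.82 and 10.6 CPM in controls and 5.59, 3.95 and 7.74 CPM at 50 MPa, which overlap. The log2 fold change was -0.98 ± 0.32 (SE; adjusted p = 0.0744), and it passed by DESeq2, at -0.98 (adjusted p = 0.0227), and without hip cap control replicate 2, at -1.10 (adjusted p = 0.0163). It also passed without hip cap 5 MPa replicate 3 and without hip cap 50 MPa replicate 4, at adjusted p values of 0.0419 and 0.0320 by edgeR. Over the 11 alternatives the Pitx1 value ran from -1.05 to -0.48, with adjusted p values of up to 0.734 by edgeR or DESeq2. Over left-out libraries the adjusted p reached 0.474 by edgeR. With no fitted terms the difference of mean log2 CPM was -0.375. The exact permutation test gave it an adjusted p of 0.794 (Benjamini-Hochberg, over 45 such tests). Meis1 had an unadjusted p under 0.05 at 50 MPa but an adjusted p of 0.197 by edgeR, with 23.1, 22.5 and 16.1 CPM against 15.5, 33.1 and 13.0 CPM in the controls.

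The remaining 6 genes did not pass in hip caps at 50 MPa or 5 MPa. Meis2 measured 29.1, 31.2 and 18.9 CPM at 50 MPa (log2 fold change -0.33 ± 0.34), Shox2 23.2, 31.0 and 28.2 CPM (0.03 ± 0.42) and Tbx4 7.38, 7.07 and 4.02 CPM (-0.33 ± 0.25). All 3 of these genes overlapped their controls. Tbx15 was 43.3, 45.3 and 38.1 CPM at 50 MPa and 44.1, 47.5, 47.3 and 49.2 CPM at 5 MPa, Tbx2 was 3.48, 2.43 and 3.71 CPM and 3.75, 2.60, 6.39 and 1.90 CPM, and Msx1 was 3.06, 2.57 and 3.09 CPM and 3.63, 3.09, 4.54 and 2.44 CPM, each overlapping the controls. On simulated counts 17% of genes changed 2-fold and 66% of genes changed 4-fold were recovered in the 50 MPa hip cap comparison. In that simulation 11 unchanged genes were also called. The fit was the same, but the simulated means of the 2 compared groups carried no run or library-type effects. These shares are therefore only a rough guide to how often differences of those sizes would be missed in the real libraries.

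In metatarsals edgeR called none of the 9 genes at 5 MPa or 50 MPa, and 0% of all genes, and DESeq2 also called none of the 9. At an unadjusted p under 0.05 there was 1 gene at each pressure, and no gene had ranges free of overlap at 5 MPa (2.88% of all genes) or 50 MPa (4.48%). At 5 MPa the gene was Meis2, with 5.07, 4.70, 3.71 and 4.04 CPM against 4.02, 9.68, 6.29 and 6.64 CPM in the controls, a log2 fold change of -0.69 ± 0.26 (SE; adjusted p = 1.00). The exact permutation test gave p = 0.114 for it, where 0.0286 is the smallest possible with 4 against 4. At 50 MPa the gene was Shox2, with 4.83, 3.03, 5.83 and 5.71 CPM against 3.06, 4.28, 2.92 and 1.62 CPM, a log2 fold change of 0.77 ± 0.33 (SE; adjusted p = 1.00) and an exact permutation p of 0.0857 (0.351 after Benjamini-Hochberg adjustment over 45 such tests).

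None of the abundant metatarsal genes passed. Tbx4 was 55.1 ± 9.03 CPM (SD, n = 4) in controls, 55.2 ± 3.23 CPM (SD, n = 4) at 5 MPa and 59.6 ± 4.88 CPM (SD, n = 4) at 50 MPa. Tbx15 was 88.1 ± 8.54 CPM (SD, n = 4), 90.4 ± 6.49 CPM (SD, n = 4) and 90.4 ± 10.5 CPM (SD, n = 4) in the same order, and Pitx1 was 22.6 ± 4.71 CPM (SD, n = 4), 22.2 ± 3.00 CPM (SD, n = 4) and 25.8 ± 4.32 CPM (SD, n = 4). For Tbx4 the log2 fold changes were -0.06 ± 0.16 at 5 MPa and 0.01 ± 0.16 at 50 MPa (SE). Tbx2 (10.2 to 14.8 CPM at 5 MPa, 12.6 to 17.3 CPM at 50 MPa), Tbx3 (3.05 to 4.89 CPM, 2.58 to 5.11 CPM), Msx1 (5.91 to 11.01 CPM, 7.14 to 8.11 CPM) and Meis1 (4.25 to 5.06 CPM, 4.19 to 8.10 CPM) also overlapped their controls.

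**Figure D3:**
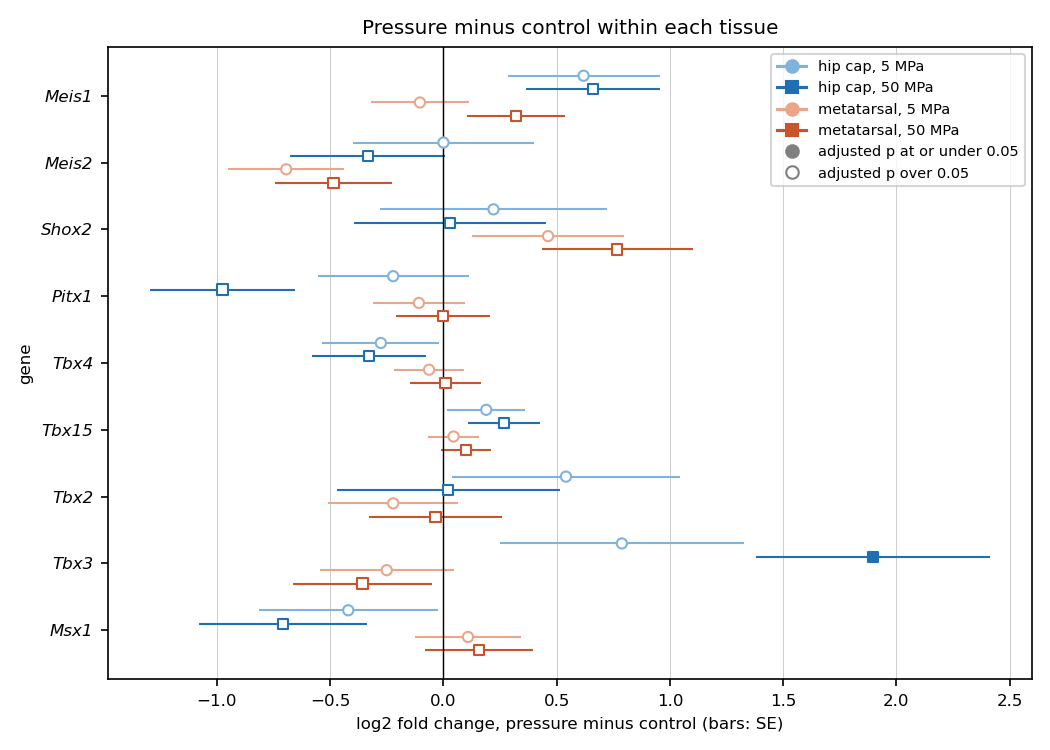
Log2 fold change of each gene, pressure minus control, in hip caps (blue) and metatarsals (orange) at 5 and 50 MPa, with the standard error of the edgeR fit as bars and filled symbols where the adjusted p was at most 0.05. The 1 filled symbol is Tbx3 in hip caps at 50 MPa, at 1.90, and in metatarsals no gene lies outside -0.69 to 0.77.

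The third question was whether the change with pressure differed between the tissues, tested as an interaction (the hip cap change minus the metatarsal change). By edgeR none of the 9 genes passed at 5 MPa (0.0188% of all genes, none of the 9 at an unadjusted p under 0.05, none by DESeq2) or at 50 MPa (0.132% of all genes, 3 of the 9 at an unadjusted p under 0.05, 1 by DESeq2). At 50 MPa the 3 genes were Tbx3 (2.25 ± 0.55, adjusted p = 0.0678), Pitx1 (-0.97 ± 0.35, adjusted p = 0.145) and Msx1 (-0.86 ± 0.41, adjusted p = 0.261), on the log2 scale, and the DESeq2 call was Tbx3, at 2.30 (adjusted p = 0.00516). The Tbx3 interaction also passed by edgeR without hip cap control replicate 1 or 2, without hip cap 5 MPa replicate 3 and without hip cap 50 MPa replicate 4, at adjusted p values of 0.0292 to 0.0493. Over all left-out libraries it ran from 1.34 to 2.89, with adjusted p values of up to 0.470 by edgeR, and over the alternatives adjusted p reached 0.368 by edgeR or DESeq2. The Pitx1 interaction passed without hip cap control replicate 2, at -1.16 (adjusted p = 0.0296). For Pitx1 the adjusted p reached 0.434 over left-out libraries by edgeR and 0.568 over the alternatives by edgeR or DESeq2.

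The other genes of the limb patterning network were read in the control comparison of the tissues. Of 10 paralogs of members, 8 were tested, none was higher in hip caps and 4 were lower by edgeR (4 at an unadjusted p under 0.05, and 4 called by DESeq2). Tbx18, a T-box repressor of mesenchyme, was 11.8 ± 8.54 CPM in the hip cap controls and 21.2 ± 2.34 CPM in the metatarsal controls (SD), with a log2 fold change of -1.32 ± 0.31 (SE; adjusted p = 0.00335) although the ranges overlapped. Without hip cap control replicate 3 or without metatarsal 50 MPa replicate 4 none of the 4 paralogs passed. Over all genes 14.1% were higher and 15.9% lower in this comparison. Of 6 partners of the Meis proteins, 1 was lower and none higher, a share close to that of all genes. This was Pbx3, a TALE homeodomain cofactor, at 5.83 ± 1.13 CPM in the hip cap controls and 15.8 ± 0.801 CPM in the metatarsal controls (SD; log2 fold change -1.50 ± 0.23, adjusted p = 4.74e-05).

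Of 40 other limb transcription factors 35 were tested, 5 were higher and 16 lower in hip caps, with a median log2 fold change of -1.62. Of all genes 14.1% were higher and 15.9% were lower, with a median of -0.08. The 5 higher genes included Irx5, an Iroquois homeobox gene of the proximal and anterior limb, at 61.7, 45.0 and 48.4 CPM in hip caps and 0.383, 7.38, 2.06 and 2.16 CPM in metatarsals (log2 fold change 4.64 ± 0.68, adjusted p = 6.81e-05). Osr1, a zinc-finger gene of limb connective tissue, was nearly absent from hip caps at 0.815, 0.318 and 0.572 CPM and reached 25.6, 32.1, 30.6 and 45.2 CPM in metatarsals (-5.83 ± 0.61, adjusted p = 3.53e-08). Twist2, a bHLH gene of undifferentiated mesenchyme, showed the same direction (0.410 ± 0.369 CPM in the hip cap controls and 11.7 ± 2.66 CPM in the metatarsal controls, -5.18 ± 0.69, adjusted p = 6.42e-07). En1, the ventral limb factor, had 0, 0 and 1 counts in the hip cap controls and 1.34, 2.67, 2.34 and 1.47 CPM in the metatarsals. The genes are those with the largest changes among those past the threshold.

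**Figure D4:**
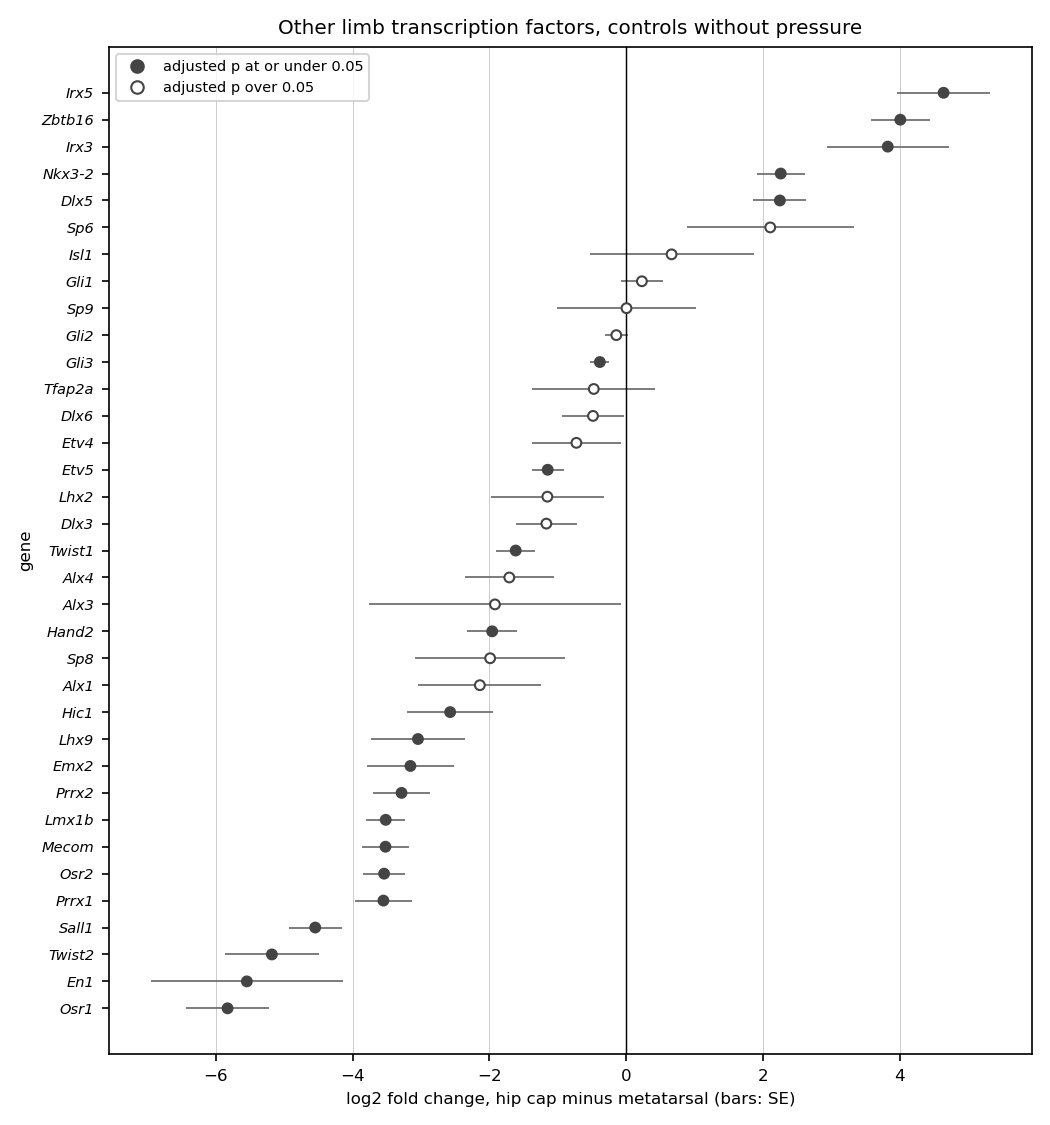
Log2 fold change, hip cap minus metatarsal controls, of the 35 tested genes among 40 other limb transcription factors, with the standard error of the edgeR fit as bars and filled points where the adjusted p was at most 0.05. Irx5, at 4.64, is the highest of the 5 filled points above 0, and Osr1, at -5.83, is the lowest of the 16 below 0.

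Among 20 limb patterning signals 16 were tested, 3 were higher and 7 lower in hip caps, where 14.1% of all genes were higher and 15.9% were lower. The signals named here are among those with the largest changes, and all were lower. The 3 higher ones had smaller changes. Fgf10, the mesenchymal ligand of limb outgrowth, had 0 counts in all 3 hip cap controls and 13.0, 11.7, 14.4 and 13.4 CPM in the metatarsal controls. Against the floor of 3 counts over the hip cap controls together (0.147 CPM) hip caps were at least 89.5-fold lower for it. Bmp4, the ligand upstream of Msx genes, was 2.04 ± 0.603 CPM in the hip cap controls and 11.5 ± 2.10 CPM in the metatarsal controls (SD; log2 fold change -2.67 ± 0.41, adjusted p = 3.24e-05). Aldh1a2, which makes retinoic acid, a proposed proximal signal for Meis genes in limb buds, had 1, 0 and 1 counts in the hip cap controls and 5.55, 4.65, 4.80 and 3.09 CPM in the metatarsals.

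Over the 22 libraries the genes most like each member were those with the smallest root mean square difference of centred log2 CPM among 13937 named genes. The closest match of all was Slf2 to Tbx15 (0.14 log2 units), with Ncoa1 next (0.14). Podn (0.21) and Sned1 (0.26), which encode matrix proteins, were nearest to Tbx4. Tbc1d16 (0.26) was nearest to Pitx1, H2afy2 (0.26) to Msx1 and Ttyh3 (0.29) to Tbx2. Of the genes high in hip caps, Slc20a1 (0.34) was nearest to Meis1, Lef1 (0.34) to Meis2 and the matrix gene Dcn (0.42) to Shox2. Rap2b (0.42) was nearest to Tbx3, and the tissue contrast and the sequencing runs are shared by all these values.

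Some of the 9 genes overlap genes on the opposite strand, and 5 of the 22 libraries were unstranded, namely hip cap control replicate 3, all 3 hip caps at 50 MPa and metatarsal 50 MPa replicate 4. Gm47071, antisense to exons of Pitx1, was 2.08 to 2.85 CPM in the 4 unstranded hip caps against 0 to 0.815 CPM in the 6 stranded ones, and 4.57 CPM in the unstranded metatarsal library against 0.191 to 0.686 CPM in the 11 stranded ones. Gm43120, antisense within Tbx15, whose exons it does not share, showed the same split, with 2.10 to 5.13 CPM against 0 to 0.155 CPM in hip caps. In the annotation a further gene, Gm28760, shares exons with Pitx1 on the same strand, so that the counting could split reads between them. Tbx3os1, antisense to Tbx3, was 1.33 to 2.01 CPM in unstranded and 0 to 4.17 CPM in stranded hip caps, a similar level to Tbx3 itself, and it shares exonic positions with Tbx3. In unstranded libraries reads from the shared exons of Pitx1 and Gm47071, or of Tbx3 and Tbx3os1, cannot be told apart. The Tbx3 comparison of hip caps at 50 MPa with controls set 3 unstranded libraries against 2 stranded and 1 unstranded one. Rsrc1, a protein-coding gene whose exons overlap those of Shox2 on the other strand, was 37.1 to 50.3 CPM in stranded hip caps and 23.3 to 31.7 CPM in stranded metatarsals.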

How the data were processed

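The authors deposited estimated counts per gene, made with kallisto after trimming with Trim Galore 0.6.5 and, per the submitters' notes, with genome build GRCm39. The kallisto version was not given in the sources used here. Libraries were ribosome-depleted total RNA, partly degraded, and 17 of the 22 used were stranded and 5 unstranded. Gene symbols, exon lengths and overlapping neighbours were computed from the GENCODE M21 annotation (GRCm38).

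Estimated counts were rounded to whole numbers. Genes were filtered with filterByExpr (21283 of 52178 kept) and fitted with edgeR 4.0.16 (TMM factors, robust quasi-likelihood fit) in R 4.3.3, with group, sequencing run and library type as terms over 22 libraries, without the 2 that the study left out. The run of each library was read from a colour strip in the study's clustering picture and is uncertain. The runs as read held 8 and 14 of the libraries used, which does not match the study's numbers of libraries per sequencing kit. P-values were adjusted over all genes tested by the Benjamini-Hochberg method, with 0.05 as threshold. Standard errors are those of the fitted contrast. Single values were compared by exact two-sided permutation tests of mean log2 CPM in scipy 1.17.1. The fitting code was checked on simulated counts with 100 genes shifted 2-fold and 100 shifted 4-fold. P-values measure the spread between these samples, each of which held separately pooled tissue.

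Alternatives were DESeq2 1.42.0, RLE factors, library sizes alone, no filter, a minimum of 10 counts per library, the 24 libraries together, fewer batch terms, a replicate block, fits within a run or tissue, and leaving out each library. The 9 genes and the lists were chosen with earlier results of these data known. Named genes were the 9 members, Tbx5, up to 4 genes of each list with the largest changes past the threshold and a mean of at least 1 CPM in a control group, and the genes nearest in pattern to each member. Some genes that this rule names are not reported here. Totals per library limit precision, most of all for Tbx3, and the floor for a count of 0 covers counting error only.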

Additional observations from a re-analysis of the deposited data

Results flagged for a closer look

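In 2 of 36 groups of 4 libraries (9 genes in 4 groups) the farthest library lay farther from the others than Dixon's critical value for 4 samples allows, where chance gives about 1 in 20. Tbx2 in metatarsal control replicate 3 was 21.7 CPM, with the nearest other control at 11.6 CPM. Tbx3 in metatarsal 5 MPa replicate 1 was 3.05 CPM, with the nearest other library at 4.81 CPM.

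The 2 left-out libraries lay above the other libraries of their group or tissue for several of the 9 genes. In hip cap 50 MPa replicate 2 Pitx1 was 13.0 CPM, Tbx4 12.9 CPM, Tbx2 11.7 CPM, Tbx3 9.71 CPM and Msx1 5.61 CPM, each above all 10 hip caps used, and Tbx15 was 30.6 CPM, below all 10. In hip cap control replicate 4 Tbx15 was 64.9 CPM, above all 10, and Tbx2 at 5.40 CPM and Tbx3 at 2.46 CPM were above the 3 controls used. In the same library Tbx4 was 0.615 CPM (4.93 to 8.19 CPM in the 3 controls) and Msx1 was 1.43 CPM (2.23 to 4.67 CPM). The same libraries had 12421 and 8362 CPM of summed cartilage markers, against 20043 to 72455 CPM in the hip caps used. The skeletal muscle markers summed to 129 CPM in hip cap 50 MPa replicate 2, against at most 42.7 CPM in the hip caps used. What part these play in the levels was not tested.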

How the results depend on the processing

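The tissue calls kept their counts within 1.5 times under every alternative that was not a left-out library, with 6 to 9 of the 9 genes called in the controls, 7 to 9 at 5 MPa and 6 to 8 at 50 MPa. The 6 in the controls and the 7 at 5 MPa came with at least 10 counts per library, where Tbx2 and Tbx3 were not tested. Leaving out 1 library gave 7 to 8, 8 to 9 and 5 to 8 genes. Tbx3 between tissues at 50 MPa, not called at 0.37, turned to -0.40 with library sizes alone and to -0.056 with no batch terms, and the cause was not tested. For hip caps at 50 MPa against control the 1 call became 2 by DESeq2 and 0 with library sizes alone, with no filter on counts, over all 24 libraries, within run 1 and in hip cap libraries alone, and ran from 0 to 2 when 1 library was left out. With at least 10 counts per library the 1 call was Pitx1, because Tbx3 was not tested there. At 5 MPa the count of 0 became 1 with no batch terms. The interaction at 50 MPa went from 0 to 1 by DESeq2 and from 0 to 2 over left-out libraries. Over all genes DESeq2 called 408 higher and 169 lower in hip caps at 5 MPa (2 and 2 by edgeR), 1540 and 915 at 50 MPa (706 and 396), and 854 and 495 for the interaction at 50 MPa (17 and 11). Of the other lists, the 4 paralogs called became 1 with at least 10 counts per library and 1 over all 24 libraries, and ran from 0 to 4 over left-out libraries. The 1 partner became 2 to 3, and with at least 10 counts per library the 21 transcription factors became 9 and the 10 signals 3. That setting did not test genes with fewer than 10 counts in 1 or more libraries. Tbx5, Osr1, Twist2, En1, Fgf10 and Aldh1a2 were among these, so the smaller counts do not show that their calls were lost.

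The replicate block called 8, 9 and 8 genes between tissues, 0 and 1 in hip caps and 0 in metatarsals, and Tbx3 in hip caps at 50 MPa was 2.00 (adjusted p = 0.0397) under it. Samples of the same number did not deviate together, with correlations of -0.13 to 0.16 over 8 pairs of hip cap libraries and -0.18 to 0.29 over 12 pairs of metatarsal libraries, so the numbers were not taken as pairs. Within-run values could be had only at 5 MPa for the tissues, since the other pressures left too few samples. The depth of 6 to 7 counts for Tbx3 in each hip cap control limits its fold change, and 3 libraries against 3 cannot go under 0.1 in an exact permutation test.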
